A study of Rattus norvegicus with 12 samples.

Results

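Transcript levels of 4 inflammatory genes, *Il6*, *Ccl2*, *Cxcl1* and *Icam1*, were examined in neonatal rat ventricular myocytes (NRVM), primary heart muscle cells cultured from Sprague Dawley pups taken 2 to 3 days after birth. The genes were taken by their Ensembl identifiers, ENSRNOG00000010278 for *Il6*, ENSRNOG00000007159 for *Ccl2*, ENSRNOG00000002802 for *Cxcl1* and ENSRNOG00000020679 for *Icam1*, and all 4 were present among the 15920 genes of the table. There were 4 groups of 3 libraries. One received vehicle, one received 100 µM of the α1-adrenergic agonist phenylephrine (PE), one received 10 nM THZ1, a covalent inhibitor of the transcription kinases CDK7, CDK12 and CDK13, and one received both (PE + THZ1). Treatment lasted 48 h by the sample labels, while 24 h stands in the column names of the libraries with PE. By the paper's methods, inhibitor or vehicle was given 3 h before PE, so THZ1 did not meet an established PE response. All groups shared serum-free medium and earlier pre-plating and BrdU exposure to reduce non-muscle cells, and the sources do not say whether libraries came from separate cell preparations, so that p-values measure the spread between these libraries, which may be technical. The comparisons address whether the agonist changes these genes and whether THZ1 alters them with and without it.

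*Il6* encodes interleukin-6, a secreted cytokine that signals through the gp130 receptor and STAT3. *Ccl2* encodes MCP-1, a CC chemokine that attracts monocytes, and *Cxcl1* encodes a CXC chemokine that attracts neutrophils. *Icam1* encodes a surface adhesion molecule that leukocyte integrins bind. All are well-known targets of the NF-κB transcription factors and are made by muscle, fibroblasts and endothelium of the heart under stress. Since RNA came from whole cultures, fewer cells of a type and less RNA per cell cannot be told apart. No table at hand paired the other identifiers with symbols, so marker genes of muscle and of other cell types, and other genes of the NF-κB pathway, were not analysed here.

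The deposited values are normalized counts, meaning reads per gene divided by 1 size factor per library, and they held whole reads behind them, which ranged from 30458862 to 45885754 per library in total. Such values are relative to the other genes of a library, and no measure of RNA per cell was at hand. Rises and falls below are meant in this relative sense. Tests used limma with log2(normalized count + 1) as the response, over the 15222 genes with a mean of at least 5. A gene was called at an adjusted p under 0.05 after Benjamini-Hochberg adjustment over all of them. Vehicle replicate 2 stood apart from its group. Its reads differed from those of the other two vehicle libraries with a chi-square per degree of freedom of 50.5 and 54.3, against 2.04 to 8.42 for the other replicate pairs. Without it 23 of the 24 calls and non-calls of the 4 genes stood, and the exception, *Cxcl1* with PE + THZ1 against vehicle, is given with that result.

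Promoter sequences were taken from RefSeq on build GRCr8 for the 3 matched genes, and those of *Il6* and *Cxcl1* are printed to show the DNA next to which these transcripts start. Each window is the 250 bases before a start of transcription, 5′ to 3′ on the gene's strand, at chr4:5894576-5894825 (minus strand) for *Il6*, chr14:17479322-17479571 (minus strand) for *Cxcl1* and chr8:27829595-27829844 (plus strand) for *Icam1*. The RefSeq record of *Icam1* begins 157 bases before the start that its window ends at, so that the window lies partly inside the annotated gene, and its sequence is not printed. The reads were aligned by the authors to another build, rn5. Capitals mark matches, on either strand, to an NF-κB-like motif (GGG, any 3 bases, then TTCC), an AP-1-like motif (TGA, any base, then TCA), a TATA box (TATAAA) and a C/EBP-like motif (TT, any 2 bases, then GCAA).
Il6: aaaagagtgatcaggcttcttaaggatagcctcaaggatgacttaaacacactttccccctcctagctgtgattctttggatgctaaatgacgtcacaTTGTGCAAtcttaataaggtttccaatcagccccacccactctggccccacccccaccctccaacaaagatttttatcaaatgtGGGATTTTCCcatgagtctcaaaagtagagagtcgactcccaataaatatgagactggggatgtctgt
Cxcl1: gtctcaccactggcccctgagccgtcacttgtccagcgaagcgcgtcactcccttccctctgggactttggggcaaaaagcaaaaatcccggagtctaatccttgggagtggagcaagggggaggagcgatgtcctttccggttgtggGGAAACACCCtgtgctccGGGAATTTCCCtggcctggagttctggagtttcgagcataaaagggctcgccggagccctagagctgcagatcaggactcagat
The *Il6* window held GGGATTTTCC from 68 to 59 bases before the start and the C/EBP-like TTGTGCAA from 152 to 145 bases before it. The *Cxcl1* window held 3 NF-κB-like matches. GGGAATTTCC lay 84 to 75 bases before the start, a match on the opposite strand overlapped it from 83 to 74, and a further one on the opposite strand lay from 102 to 93. The *Icam1* window held 1 match, the TATA box, from 53 to 48 bases before the start at its end, which is downstream of the start of the gene record. Among 33469 RefSeq promoter windows of the same length, 4.53% held the NF-κB-like motif, 6.34% the AP-1-like motif, 12.9% the TATA box and 9.22% the C/EBP-like motif. These are matches of letters, and no binding was measured.

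*Il6* was the lowest of the 4 in reads, with 82 to 237 reads per library, and its level followed PE whether or not THZ1 was present. Its normalized counts were 106.5, 137.6 and 127.9 in the vehicle libraries, 93.5, 112.7 and 108.2 with THZ1, 191.4, 170.6 and 232.3 with PE, and 196.0, 204.9 and 199.0 with PE + THZ1. Every library that received PE lay above every library that did not. How often groups of 3 libraries are separate among all genes was not counted. Overlap is therefore given, here and for the other genes, as description only. The means were 124.0 ± 15.9 (SD, n = 3) with vehicle, 105 ± 10.1 with THZ1, 198.1 ± 31.4 with PE and 199.9 ± 4.53 with PE + THZ1. Ordered by level, THZ1 and vehicle overlapped, and so did PE and PE + THZ1, while the lower pair did not reach the upper pair. Counting error alone gives a coefficient of variation of 7.03% to 9.43% at these reads. The observed coefficient was 15.8% with PE and 2.27% with PE + THZ1.

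*Ccl2* was lowest with THZ1 alone and highest in both PE groups. The vehicle libraries had 9571, 9298 and 10636 normalized counts, and the THZ1 libraries had 7598, 7617 and 7434, all below vehicle. With PE the values were 11158, 11939 and 11379, all above vehicle. With PE + THZ1 they were 10515, 11294 and 12694, a range that covers that of PE and reaches just below the highest vehicle library. The means were 9835 ± 707 (SD, n = 3) with vehicle, 7549 ± 101 with THZ1, 11492 ± 403 with PE and 11501 ± 1104 with PE + THZ1. The last pair of means could not be told apart.

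*Cxcl1*, the other chemokine, had a different order, with THZ1 alone lowest, then PE, vehicle and PE + THZ1. Its normalized counts were 4336, 4124 and 4619 with vehicle, 3428, 3214 and 3280 with THZ1, 3720, 4100 and 3824 with PE, and 4592, 4756 and 5262 with PE + THZ1. THZ1, PE and vehicle did not overlap, although the highest PE library and the lowest vehicle library were close together, and PE + THZ1 overlapped only with vehicle. The means were 3308 ± 109 (SD, n = 3) with THZ1, 3881 ± 197 with PE, 4360 ± 248 with vehicle and 4870 ± 349 with PE + THZ1.

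The 4 groups of *Icam1* did not overlap, and its coefficient of variation within groups ran from 0.871% with vehicle to 4.06% with PE. Its normalized counts were 5309, 5264 and 5217 with vehicle, 5409, 5613 and 5455 with THZ1, 4274, 4266 and 3977 with PE, and 5931, 5815 and 6158 with PE + THZ1. PE was lowest and PE + THZ1 highest, with vehicle and THZ1 close together between them. The highest vehicle library, at 5309, lay just below the lowest THZ1 library, at 5409. The difference between these groups was not called (log2 change 0.06, limma, adjusted p = 0.23). The means were 4172 ± 170 (SD, n = 3) with PE, 5263 ± 45.8 with vehicle, 5492 ± 107 with THZ1 and 5968 ± 174 with PE + THZ1. The reads behind these values, 3663 to 7471 per library, give a counting error of 1.29% to 1.61% per group.

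**Figure D1:**
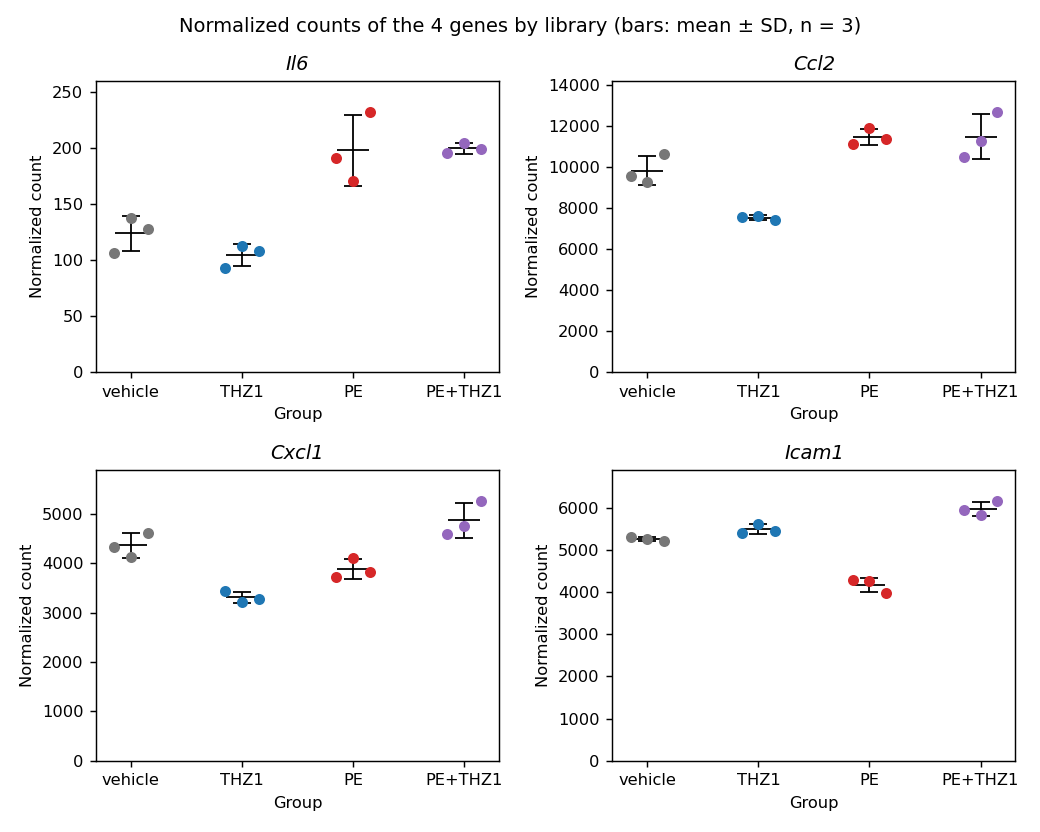
Normalized counts (y axes, starting at 0) of the 4 genes in each library, by group (x axes), with points for the 3 libraries and black bars for the mean ± SD. Every *Il6* library with PE lies above those without, *Ccl2* and *Cxcl1* are lowest with THZ1 alone, and *Icam1* is lowest with PE and highest with PE + THZ1.

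PE against vehicle moved the 4 genes in both directions. *Il6* rose by 58.9% and *Ccl2* by 17.0%, whereas *Cxcl1* fell by 10.9% and *Icam1* fell by 20.8%. The log2 change was 0.67 for *Il6* (95% confidence interval 0.40 to 0.93, limma, adjusted p = 0.00023) and 0.23 for *Ccl2* (0.10 to 0.35, limma, adjusted p = 0.0042). It was -0.17 for *Cxcl1* (-0.28 to -0.05, limma, adjusted p = 0.018) and -0.34 for *Icam1* (-0.42 to -0.25, limma, adjusted p = 2.1e-06). Thus 4 of 4 were called, against 52.4% of all genes tested, 28.4% being higher and 24.0% lower with PE. The median absolute log2 change was 0.28 for the members and 0.25 for all genes. The *Ccl2* call held in 23 of 23 alternatives. With equal library totals its log2 change was only 0.14, close to the threshold (limma, adjusted p = 0.049). The *Cxcl1* call rested on single libraries. Its log2 change was -0.12 without vehicle replicate 3 (limma, adjusted p = 0.093), -0.14 without PE replicate 1 (limma, adjusted p = 0.081) and -0.16 without PE replicate 3 (limma, adjusted p = 0.058), and it was also lost without a trend in the prior variance (limma, adjusted p = 0.056).

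Without PE, THZ1 lowered both chemokines and neither other gene was called. *Ccl2* fell by 23.1% and *Cxcl1* fell by 24.1%, with log2 changes of -0.38 (-0.51 to -0.25, limma, adjusted p = 4.8e-05) and -0.40 (-0.52 to -0.28, limma, adjusted p = 1.3e-05). For *Il6* the log2 change was -0.24 (-0.50 to 0.03, limma, adjusted p = 0.13), and without vehicle replicate 1, the lowest of its group, it was -0.34 and was called (limma, adjusted p = 0.042). For *Icam1* it was 0.06 (-0.03 to 0.15, limma, adjusted p = 0.23), and with library totals made equal it was 0.21 and was called (limma, adjusted p = 0.0015). Of all genes tested 49.1% were called, 24.4% higher and 24.7% lower. The median log2 change was -0.31 for the members and 0.00 for all genes.

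Between the groups with PE, none of the 4 genes was called lower with THZ1, relative to the other genes of the library. *Icam1* rose by 43.0% and *Cxcl1* rose by 25.4% in PE + THZ1 relative to PE, with log2 changes of 0.52 (0.43 to 0.60, limma, adjusted p = 4.8e-09) and 0.33 (0.21 to 0.44, limma, adjusted p = 6.7e-05). *Il6*, which PE had raised, had a log2 change of 0.03 (-0.24 to 0.29, limma, adjusted p = 0.88). A loss of the whole rise with PE, 0.67 on the log2 scale, lies outside this interval. *Ccl2*, which PE had also raised, had a log2 change of -0.00 (-0.13 to 0.12, limma, adjusted p = 0.97). Its sign turned positive under other scalings, and with equal library totals the change was 0.26 and was called (limma, adjusted p = 0.00059). Thus 2 of 4 members were called and both were higher, against 58.7% of all genes tested, 29.1% higher and 29.6% lower. The median absolute log2 change was 0.18 for the members and 0.30 for all genes.

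With both agents, all 4 genes stood above vehicle. *Il6* was 61.7% higher (log2 change 0.69, 0.43 to 0.96, limma, adjusted p = 0.00017) and *Ccl2* 16.8% higher (0.22, 0.10 to 0.35, limma, adjusted p = 0.0047). *Icam1* was 13.3% higher (0.18, 0.10 to 0.27, limma, adjusted p = 0.0012) and *Cxcl1* 11.6% higher (0.16, 0.04 to 0.28, limma, adjusted p = 0.024). The libraries of the 2 groups overlapped for *Ccl2* and *Cxcl1*. Of all genes tested 51.2% were called, with 25.3% higher and 25.9% lower, as shares of all tested. The median absolute log2 change was 0.20 for the members and 0.24 for all genes. The *Cxcl1* call was lost without vehicle replicate 1 (log2 change 0.16, limma, adjusted p = 0.053), without vehicle replicate 2 (0.12, limma, adjusted p = 0.063) and without PE + THZ1 replicate 3 (0.10, limma, adjusted p = 0.15). It was also lost without a trend in the prior variance (limma, adjusted p = 0.069) and in a fit of the 2 groups alone (limma, adjusted p = 0.057).

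When THZ1 was present in both groups, PE raised all 4 genes. *Il6* rose by 90.5%, *Ccl2* by 51.9%, *Cxcl1* by 47.0% and *Icam1* by 8.63%. The log2 changes were 0.93 for *Il6* (0.67 to 1.19, limma, adjusted p = 3.3e-05), 0.60 for *Ccl2* (0.48 to 0.73, limma, adjusted p = 1.2e-06) and 0.56 for *Cxcl1* (0.44 to 0.67, limma, adjusted p = 1.3e-06). The change of *Icam1* was 0.12 (0.03 to 0.20, limma, adjusted p = 0.043), close to the threshold. Thus 4 of 4 were called higher, against 11.8% of all genes tested being higher and 10.8% lower, or 22.6% in either direction. That share depends on the fit. It stands for 3434 genes, against 4421 without vehicle replicate 2 and 4704 with only the groups compared. Other fits called fewer, with 2853 genes under equal library totals and 2519 without PE + THZ1 replicate 3. The median log2 change was 0.58 for the members and -0.01 for all genes. In this comparison 98.8% of the genes tested had a smaller log2 change than *Il6* and 96.1% a smaller one than *Ccl2*. The share was 95.4% for *Cxcl1* and 73.0% for *Icam1*. Other comparisons placed the genes less far out. In the same order of genes, the shares were 93.4%, 72.8%, 31.6% and 19.6% for PE against vehicle. For PE + THZ1 against vehicle they were 95.3%, 74.1%, 67.4% and 69.8%. The *Icam1* call was lost when any single THZ1 or PE + THZ1 library was left out (log2 change 0.10 to 0.14, limma, adjusted p from 0.058 to 0.17) and without PE replicate 2 (0.12, limma, adjusted p = 0.052). It was also lost with equal library totals (limma, adjusted p = 0.060) and without a trend in the prior variance (limma, adjusted p = 0.074).

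**Figure D2:**
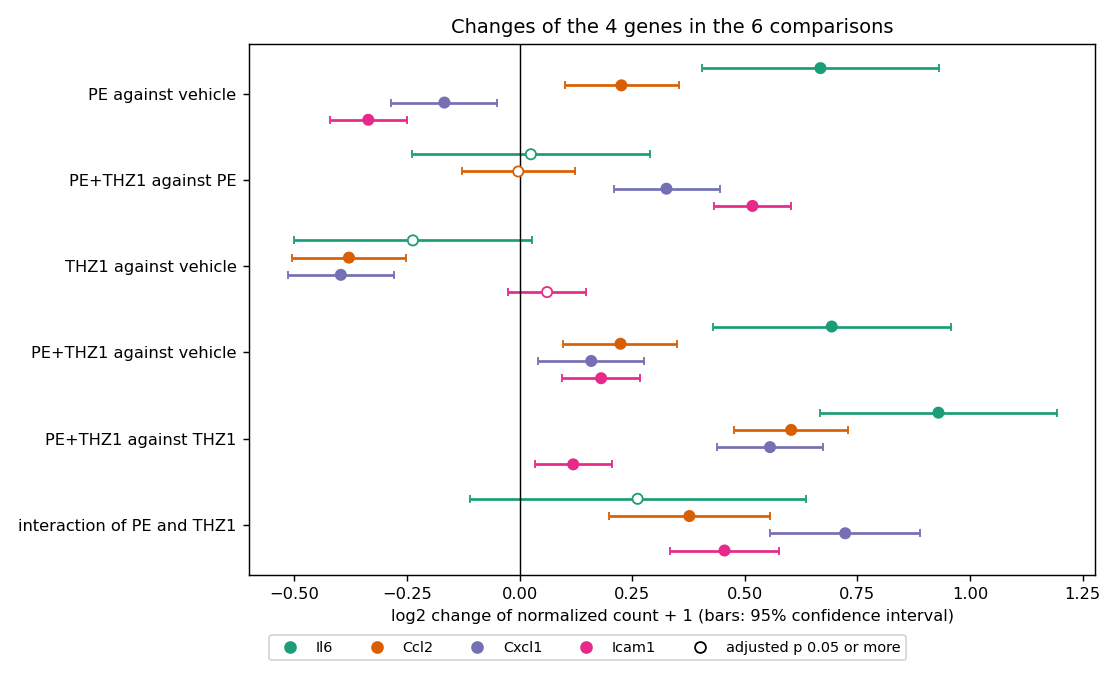
Log2 change of the normalized count + 1 (x axis) of the 4 genes in each comparison (y axis), with points for the estimate, bars for the 95% confidence interval, and open points where the adjusted p was 0.05 or more. With THZ1 in both groups (PE+THZ1 against THZ1) all 4 estimates lie above 0, while PE against vehicle has *Il6* and *Ccl2* above 0 and *Cxcl1* and *Icam1* below it.

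**Figure D3:**
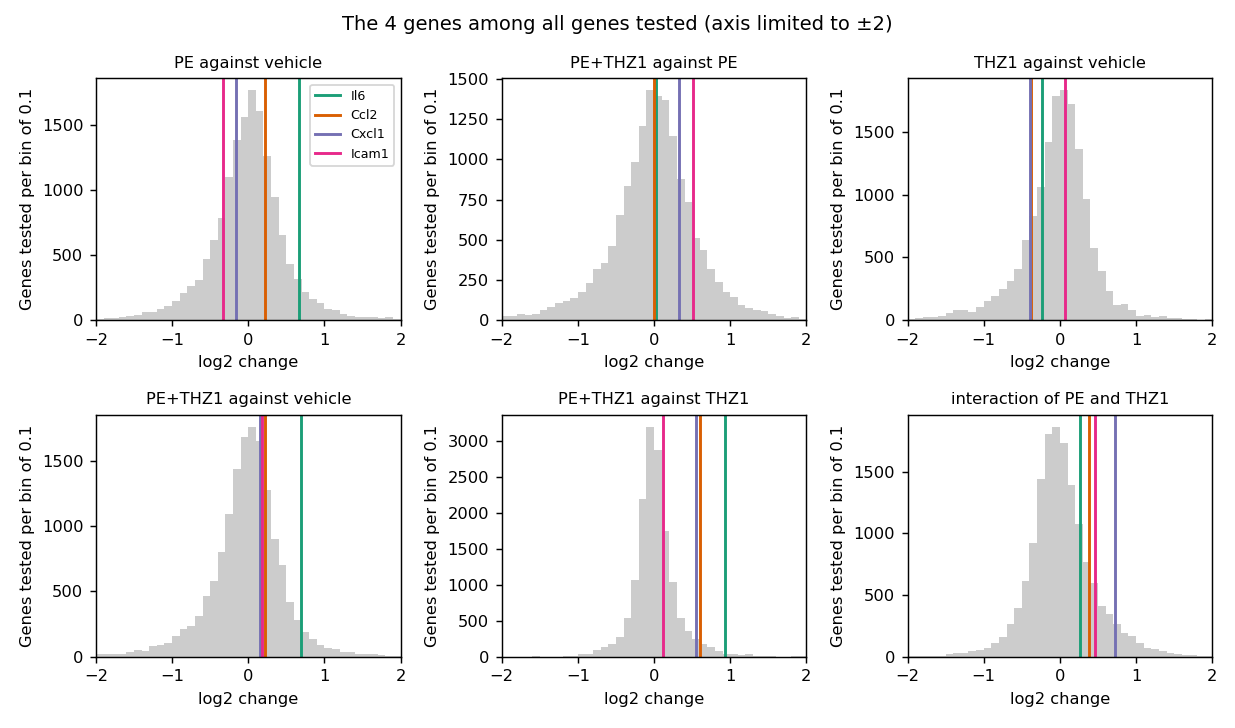
Histograms of the log2 change (x axes, limited to ±2) of all 15222 genes tested (y axes, genes per bin of 0.1), 1 panel per comparison, with a vertical line for each of the 4 genes. For PE+THZ1 against THZ1 the lines of *Il6*, *Ccl2* and *Cxcl1* lie in the upper tail, and in the panel of PE+THZ1 against PE those of *Il6* and *Ccl2* lie near the centre.

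The interaction term tests whether the effect of PE differs with and without THZ1, which is the same number as the difference in the effect of THZ1 with and without PE. It was positive and called for *Cxcl1* (log2 interaction 0.72, 0.56 to 0.89, limma, adjusted p = 3.2e-06), *Icam1* (0.46, 0.33 to 0.58, limma, adjusted p = 1.5e-05) and *Ccl2* (0.38, 0.20 to 0.56, limma, adjusted p = 0.0028). For *Cxcl1* and *Icam1* the estimated PE effect had opposite signs, negative without THZ1 and positive with it. These signs held in the alternatives, but 1 of the effects of each gene was near the threshold. The *Cxcl1* effect without THZ1 was called in 19 of 23 alternatives, and the *Icam1* effect with THZ1 in 14 of 23. A reversal is thus less certain than a difference in effect. For *Ccl2* it was positive in both and larger with THZ1. The term for *Il6* was 0.26 (-0.11 to 0.63, limma, adjusted p = 0.29), an interval that runs from a slightly smaller to a clearly larger PE effect under THZ1. Thus 3 of 4 had a called positive interaction, against 13.0% of all genes tested having a positive one and 16.9% a negative one, or 29.9% in either direction. Here too the share depends on the fit, with 4557 genes called, 6120 without vehicle replicate 2 and 3726 without THZ1 replicate 2. The comparisons share libraries, so the interaction is no separate evidence for the changes it is made of.

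Ratios between members within a library do not depend on how libraries are scaled. They are used here only between groups, since reads per gene also depend on transcript length, and the pairs were chosen after the values were seen. The ratio of *Ccl2* to *Cxcl1* reads was 2.25 ± 0.0478 (SD, n = 3) with vehicle, 2.28 ± 0.0781 with THZ1, 2.36 ± 0.0628 with PE + THZ1 and 2.96 ± 0.0452 with PE. The PE libraries, from 2.91 to 3.00, lay above all others, which spanned 2.21 to 2.41. The ratio of *Icam1* to *Cxcl1* was 1.21 ± 0.0745 with vehicle, 1.08 ± 0.0628 with PE, 1.23 ± 0.0608 with PE + THZ1 and 1.66 ± 0.0843 with THZ1. Here the THZ1 libraries, from 1.58 to 1.75, lay above all others. The ratio of *Ccl2* to *Icam1* was lowest with THZ1, at 1.38 ± 0.0262, and highest with PE, at 2.76 ± 0.131, with vehicle at 1.87 ± 0.148 and PE + THZ1 at 1.93 ± 0.145. Set against vehicle, the PE libraries did not overlap in the ratios of *Ccl2* to *Cxcl1* and of *Ccl2* to *Icam1*, and did in that of *Icam1* to *Cxcl1*. The THZ1 libraries were separate from vehicle in both ratios with *Icam1*, and overlapped in that of *Ccl2* to *Cxcl1*. Under both agents the 3 ratios overlapped with those of vehicle. The ratios were not tested.

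The summed normalized counts differed between groups, from 33.4 to 34.7 M in the 6 libraries with THZ1, 35.8 to 39.4 M with vehicle and 40.3 to 40.5 M with PE alone. Making the totals equal therefore shifted every gene. The median log2 change of all genes moved from 0.01 to 0.27 for PE + THZ1 against PE, from 0.00 to 0.15 for THZ1 against vehicle, from 0.01 to 0.17 for PE + THZ1 against vehicle and from -0.01 to 0.09 for the interaction. The share of called genes that were higher moved from 54.3% to 37.4% for PE against vehicle, from 49.6% to 77.4% for PE + THZ1 against PE, from 49.7% to 72.5% for THZ1 against vehicle, from 49.4% to 74.3% for PE + THZ1 against vehicle and from 43.4% to 73.3% for the interaction. Since each library was multiplied by 1 factor, changes relative to the median of all genes stay nearly the same by construction. They are therefore no separate check. On that scale the log2 change of *Icam1* with PE + THZ1 against PE was 0.51 under both scalings and that of *Cxcl1* 0.32 under both. That of *Ccl2* in the same comparison was -0.01 under both, and that of *Il6* 0.02 under both. The *Ccl2* change called with equal totals was 0.255, against a median of 0.265 for all genes. With THZ1 against vehicle, *Icam1* stood 0.06 above the median under both scalings, and *Ccl2* and *Cxcl1* stood at -0.38 and -0.40 under both. Before the median was subtracted, equal totals made both falls smaller. The log2 change was then -0.23 for *Ccl2* (limma, adjusted p = 0.0021) and -0.25 for *Cxcl1* (limma, adjusted p = 0.00059).

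**Figure D4:**
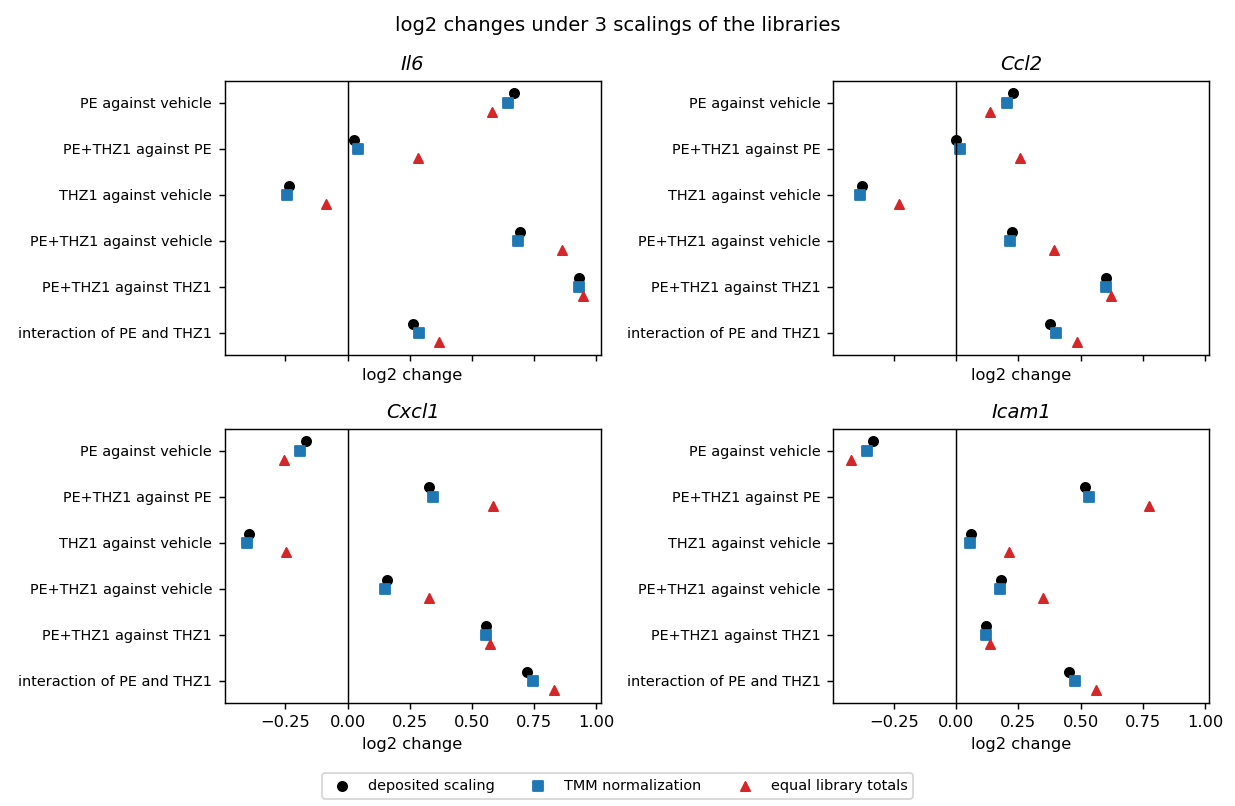
Log2 change (x axes) of the 4 genes in each comparison (y axes) under the deposited scaling (circles), TMM normalization (squares) and equal library totals (triangles). The triangles lie to the right of the circles wherever a group with THZ1 is set against one without, and the sign of *Ccl2* in PE+THZ1 against PE, near 0 with the deposited scaling, turns positive, while no other sign changes.

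Genes with the most similar pattern were sought by Pearson correlation of log2(normalized count + 1) over the 12 libraries among 11163 genes with a mean of at least 100. The points share the 4 treatments and the library scaling, so the coefficients describe likeness across groups and carry no test. The closest to *Il6* was ENSRNOG00000011647 (r = 0.955), with means of 3436 with vehicle, 3492 with THZ1, 5511 with PE and 5305 with PE + THZ1. The closest to *Ccl2* was ENSRNOG00000018500 (r = 0.976), at 574.8, 442.5, 640.6 and 624.1 normalized counts in the same order of groups. The closest to *Cxcl1* was ENSRNOG00000019549 (r = 0.965), at 7413, 5797, 6383 and 7709. The closest to *Icam1* was ENSRNOG00000047726 (r = 0.982), at 658.4, 741.5, 444.0 and 886.6. These repeat the order of the groups seen for the member in the case of *Cxcl1* and *Icam1*. None was another member of the 4, and the next 2 closest of each had r from 0.920 to 0.982.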

How the data were processed

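RNA-seq libraries of NRVM (4 groups of 3, grouped and numbered by the sample titles) were prepared with a KAPA mRNA kit and read single-end. The authors aligned reads with TopHat2 2.1.1 to rn5, counted them on genes with HTSeq using strand, and divided the counts by DESeq2 size factors, all rat libraries in one run. The deposited values are this signal, a normalized count that is never negative. A further unnamed column with the authors' cluster numbers was not used. Each value divided by the lowest of its library gave a whole read within 0.01 for 100% of values, and every gene listed had at least 1 read in each library.

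limma 3.58.1 in R 4.3.3 was fitted to log2(normalized count + 1) of all 12 libraries with a trend in the prior variance, two-sided, with a pseudocount of 1, which hardly affects these genes. Genes with a mean of at least 5 entered, and p-values were adjusted over all of them. The fit was tested on simulated counts. Alternatives were edgeR 4.0.16 (quasi-likelihood) and DESeq2 1.42.0 on recovered reads, TMM and equal totals, pseudocounts of 0.5 and 5, no filter or a minimum mean of 50, no trend, only the groups compared, the replicate number as a block, and each library left out. Promoters and motifs were read from RefSeq tables (GRCr8) with Python 3.11.15, and pandas 2.3.3 and matplotlib 3.10.9 served for tables and figures. The members and lists were chosen with earlier results of these data known. By the naming rule the 4 members, listed pathway genes and the 3 most similar genes of each member were to be named. Since 0 identifiers were paired with a symbol, the lists were not used and 1 similar gene per member is printed.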

Additional observations from a re-analysis of the deposited data

Results flagged for a closer look

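The effect of THZ1 differed between cells with and without PE for 3 of the 4 genes, by a test of the difference itself (limma, interaction term). Of all genes tested 29.9% were called by this test, 13.0% with a positive term and 16.9% with a negative one. *Cxcl1* had a log2 interaction of 0.723 (limma, adjusted p = 3.2e-06), since THZ1 changed it by -0.40 without PE and by 0.33 with PE. *Icam1* had 0.455 (limma, adjusted p = 1.5e-05), with THZ1 effects of 0.06 and 0.52. *Ccl2* had 0.377 (limma, adjusted p = 0.0028), with effects of -0.38 and -0.00. The 3 terms stayed positive and called in the 22 alternatives run for each. Dixon's test for an outlying value was not run on the 4 genes, whose groups held 3 libraries each.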

How the results depend on the processing

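Of 260 values of the 4 genes under alternatives that kept all libraries, 250 kept their direction and side of the threshold, and of 288 with a library left out, 270 did. The cause of the others was not tested unless stated. With equal library totals *Ccl2* in PE + THZ1 against PE turned from -0.00 to 0.255, *Icam1* in THZ1 against vehicle passed the threshold at 0.212 and *Icam1* in PE + THZ1 against THZ1 missed it at 0.137. The same *Ccl2* change was 0.015 with TMM, 0.018 with edgeR and 0.002 with DESeq2. Without a trend in the prior variance 3 calls were lost with the log2 changes as they were, *Cxcl1* in PE against vehicle (-0.167) and in PE + THZ1 against vehicle (0.159, also lost at 0.159 with only the groups compared), and *Icam1* in PE + THZ1 against THZ1 (0.119). With each library left out, the log2 change in PE against vehicle ran from -0.207 to -0.125 for *Cxcl1*. In PE + THZ1 against PE it ran from -0.076 to 0.145 for *Il6*, with a minus sign without PE replicate 2, and from -0.076 to 0.060 for *Ccl2*. It ran from -0.342 to -0.157 for *Il6* in THZ1 against vehicle, from 0.102 to 0.201 for *Cxcl1* in PE + THZ1 against vehicle, and from 0.097 to 0.138 for *Icam1* in PE + THZ1 against THZ1. With the replicate number as a block, 8151 genes were called for PE against vehicle, against 7976, and no call of the 4 genes changed. Same-numbered libraries of different groups had a mean correlation of deviations of 0.0301 (18 pairs, lowest -0.0644). For libraries with other numbers the mean was -0.0152 (36 pairs). Of 12 libraries, 8 correlated best with their own number, so a weak link between equal numbers remains possible. The main fit did not treat the numbers as pairs. Depth limits mainly *Il6*, which had 82 to 237 reads per library.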
